A study of Glycine max with 54 samples.

Results

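Isoflavones are the legume branch of flavonoid metabolism. Phenylalanine ammonia-lyase (PAL) feeds the phenylpropanoid route, chalcone synthase and chalcone reductase make the chalcone of the daidzein branch, chalcone isomerase closes its ring to a flavanone, isoflavone synthase (a cytochrome P450) moves the aryl ring, and hydroxyisoflavanone dehydratase removes water to leave the isoflavone. In soybean these compounds accumulate constitutively and are precursors of the glyceollin phytoalexins that leaves make after attack. Described here are 5 genes of this route among the 53971 loci measured: isoflavone synthase GLYMA07G32330 and GLYMA13G24200, chalcone reductase GLYMA02G47750, chalcone isomerase GLYMA10G43850 and hydroxyisoflavanone dehydratase GLYMA01G45020. They were chosen by identifier for the enzyme they encode, and all 5 had a value in at least 49 of the 54 libraries. The identifiers place them on chromosomes 7, 13, 2, 10 and 1, and both isoflavone synthase genes are called by chromosome below. Isoflavone synthase is a pair of closely related copies and chalcone reductase is one of a family, so that reads of such copies could have been divided between them in counting, and the split within each pair or family is uncertain.

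The study followed leaves of 3 soybean genotypes under the soybean aphid by RNA-seq: the susceptible Dongnong47, P203, which repels aphids (antixenosis), and P746, on which aphids develop poorly (antibiosis). Each leaflet of a trifoliolate leaf carried 6 aphids inside a cage (infested), and mock seedlings had the same cages without aphids. Caged areas were harvested at 24, 48 and 96 h after infestation (HAI), with 3 replicates in each of the 18 groups. Each library is a bulk of leaf tissue, so that fewer cells of a type and less RNA per cell cannot be told apart, and the sources used here pair no identifier with a defining leaf marker against which the tissue could be checked.

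Estimated counts summed to 16596469 to 34982790 per library (median 20034238). Levels below are CPM, counts scaled to a fixed library size, after TMM scaling, a correction for library composition. Scaling by total counts instead moved the log2 difference of the median gene by -0.74 to 0.92, and by more than 0.1 in 26 of 33 comparisons, so that all differences given here are relative to the TMM baseline. Up to 53.5% of abundant genes on chromosomes 14 to 20 had no value in a library, with medians of 45.1% in mock and 6.51% in infested libraries at 96 HAI, whereas on chromosomes 1 to 13, where the 5 genes lie, the highest share was 0.319%. Of 75 marker genes that separate Dongnong47 from P203 in mock leaves at 24 HAI, 5.33% were Dongnong47-like in infested replicate 1 of the libraries labelled Dongnong47 at 96 HAI, and 82.7% in infested replicate 3 of those labelled P746 at 48 HAI. Of 75 markers between P203 and P746, the libraries labelled P746, 24 HAI, infested replicates 1, 2 and 3 were P203-like at 98.7%, 4.0% and 54.7%, and those labelled P746 at 48 and 96 HAI at 76% to 98.7%, apart from the Dongnong47-like 48 HAI, infested replicate 3, at 58.7%. The libraries labelled Dongnong47 lay at 58.7% to 70.7%, apart from infested replicate 1 at 96 HAI, at 92%. The mock libraries of 24 HAI define these markers, so that they match their labels by construction. Genotypes are given by label. Infested against mock results that rest on Dongnong47, 96 HAI, infested replicate 1, P746, 24 HAI, infested replicates 1 and 3 or P746, 48 HAI, infested replicate 3 are also given without these libraries. The remaining libraries labelled P746 at 48 and 96 HAI carry P203-like markers, so that P746 at these times cannot be given without such libraries.

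The chromosome 13 isoflavone synthase had by far the widest range of the 5 genes. Its level ran from 0.490 CPM in Dongnong47 at 96 HAI (infested replicate 3) to 983 CPM in P746 at 48 HAI (infested replicate 2), a 2010-fold range with a median of 35.3 CPM. Over the 18 libraries of each genotype its median was 3.88 CPM in Dongnong47, 143 CPM in P203 and 48.1 CPM in P746. The highest group mean was 719 ± 235 CPM (SD, n = 3) in P746 mock leaves at 48 HAI and the lowest 2.15 ± 2.46 CPM in Dongnong47 mock leaves at 48 HAI, and the lowest 5 of the 18 group means were all of Dongnong47. In the order of the 18 group means, however, each of the 17 neighbouring pairs overlapped in its libraries.

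The chromosome 7 isoflavone synthase spread less and followed another order. It ran from 3.74 CPM in P203 at 96 HAI (mock replicate 3) to 262 CPM in P746 at 24 HAI (mock replicate 2), with a median of 42.6 CPM. Its median was 51.6 CPM in Dongnong47, 22.5 CPM in P203 and 35.5 CPM in P746, so that its genotype order differed from that of the other copy. The highest group mean was 162 ± 87.3 CPM in P746 mock leaves at 24 HAI, and the lowest was 13 ± 6.07 CPM in P746 mock leaves at 96 HAI. All 17 neighbouring pairs of group means again overlapped.

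Hydroxyisoflavanone dehydratase, the last enzyme of the route, was measured between 5.01 CPM (Dongnong47 mock, 48 HAI, replicate 3) and 152 CPM (P746 infested, 48 HAI, replicate 2), with a median of 26.6 CPM. Its group means ran from 10.6 ± 4.32 CPM in infested Dongnong47 at 96 HAI to 66.0 ± 30.6 CPM in mock Dongnong47 at 96 HAI, so that its lowest and highest group means were those of a single genotype and time point. Chalcone reductase had a median of 1.51 CPM and a maximum of 24.1 CPM, in the P746 library that also held the maxima of hydroxyisoflavanone dehydratase and the chromosome 13 isoflavone synthase. It was at 0 in 2 libraries, Dongnong47 mock replicate 3 at 48 HAI and infested replicate 3 at 96 HAI, where 3 counts, the limit that a count of 0 allows, correspond to 0.256 and 0.245 CPM. Chalcone isomerase was the least measurable gene, with a median of 0.672 CPM, a maximum of 4.78 CPM and no count in 5 libraries, among them all 3 mock libraries of Dongnong47 at 48 HAI (limits of 0.178 to 0.256 CPM). Such limits cover counting error only.

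**Figure D1:**
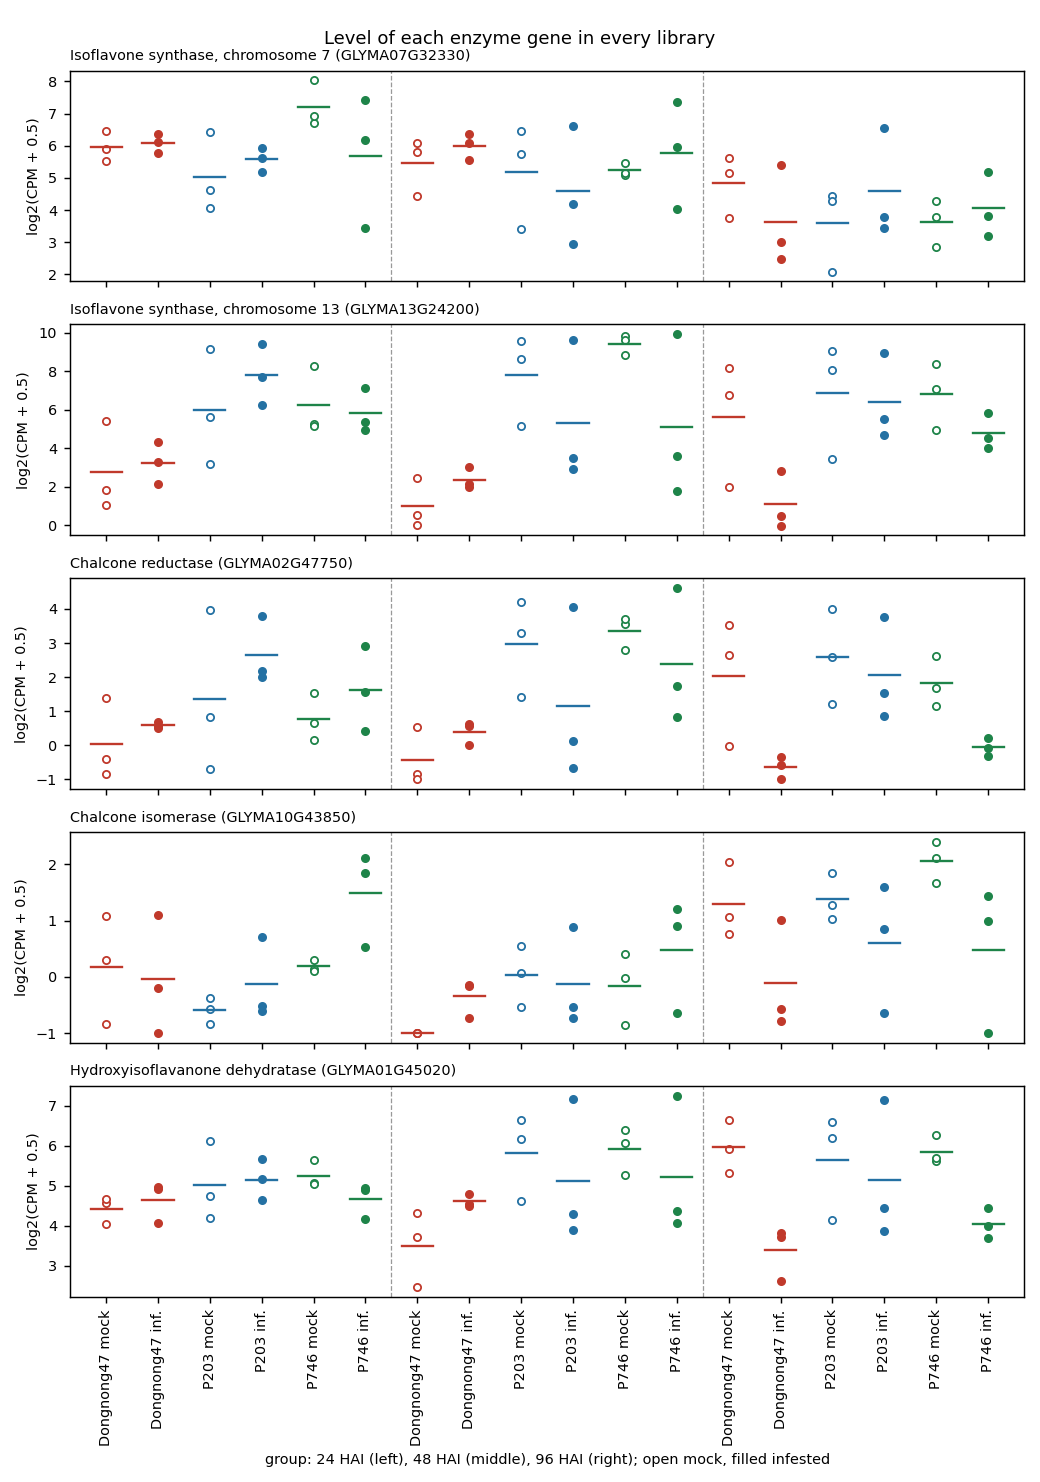
Level of each of the 5 genes as log2(CPM + 0.5) in all 54 libraries, by group (open points mock, filled points infested, bars the means of 3 log2 values, dashed lines between 24, 48 and 96 HAI). The chromosome 13 isoflavone synthase has the widest range, 0.490 to 983 CPM, and its libraries of 1 group often lie far apart.

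The share of each isoflavone synthase copy in the pair varied between genotype labels and times, in part with overlap. In Dongnong47 mock leaves the chromosome 13 copy made up 3.36%, 4.96% and 32.9% of the pair's CPM at 24 HAI and 1.66%, 2.33% and 6.94% at 48 HAI. At 96 HAI it reached 20.7%, 68.8% and 89.2%, above every Dongnong47 mock library of 48 HAI. In P203 mock leaves it was 35% to 86.8% at 24 HAI, 77.6% to 90% at 48 HAI and 73.6% to 96.3% at 96 HAI. In P746 mock leaves it was 22.8% to 54.4% at 24 HAI, and 92.9% to 95.9% and 81.6% to 94.7% at 48 and 96 HAI, ranges that did not overlap with that of 24 HAI. Mock libraries labelled P746 at 48 and 96 HAI carry mostly P203-like markers, so that time and plant material cannot be told apart here. In infested P746 leaves at 48 HAI the share ran from 4.46%, in replicate 3, whose markers go against its label, to 85.8%, with 42.6% in the other library. These shares are a description without a test, and they rest on how reads were divided between the copies.

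**Figure D2:**
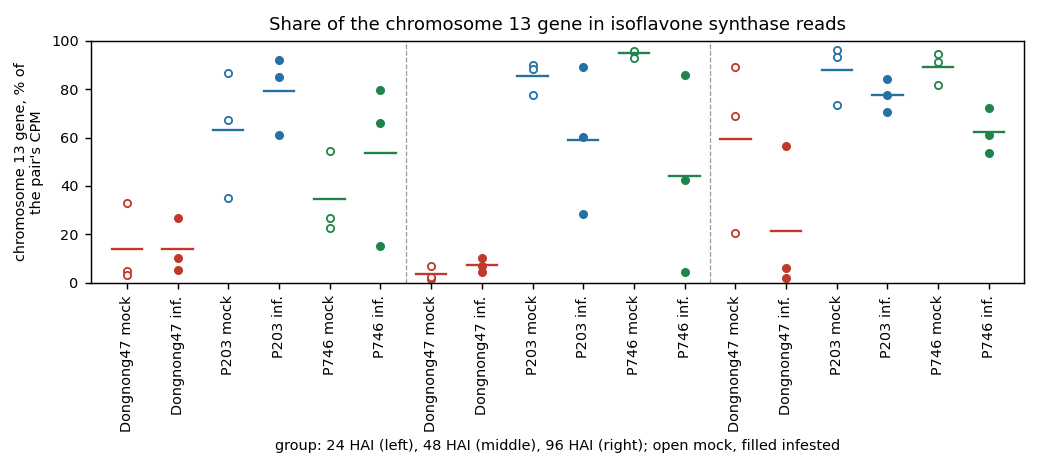
Share of the chromosome 13 gene in the summed CPM of both isoflavone synthase genes (percent, linear axis from 0) in each of the 54 libraries (open points mock, filled points infested, bars the means of 3 libraries). Mock Dongnong47 leaves at 48 HAI lie at 1.66% to 6.94%, and mock P746 leaves at 92.9% to 95.9%.

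Replicates of a single group differed widely, and they differed together. The highest replicate of the chromosome 13 isoflavone synthase exceeded the lowest by a median of 12.2-fold over the 18 groups, from 2.0-fold in P746 mock leaves to 340-fold in P746 infested leaves, both at 48 HAI (in the infested group replicate 3 is a library whose markers go against its label). Its replicate SD was 2.28 on the log2 scale, above that of 99.8% of 25039 expressed genes on chromosomes 1 to 13 (1 CPM or more in 3 libraries), whose median was 0.49. The share of its variance that lay between replicates was 40.1%, the same as the median of those genes, so that its groups were spread as widely in proportion. For chalcone reductase, hydroxyisoflavanone dehydratase, the chromosome 7 isoflavone synthase and chalcone isomerase the replicate SD was 1.33, 0.96, 1.20 and 0.77.

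In P203 mock leaves at 24 HAI, for example, the chromosome 13 isoflavone synthase had 565, 8.71 and 49.5 CPM in replicates 1, 2 and 3, chalcone reductase 15.1, 0.116 and 1.29 CPM, and hydroxyisoflavanone dehydratase 68.2, 17.8 and 26.0 CPM. All 3 genes were highest in the first library and lowest in the second. In infested P203 leaves at 48 HAI the 3 genes had 7.0, 785 and 10.8 CPM, 0.586, 16.1 and 0.129 CPM, and 19.0, 142 and 14.4 CPM. Here replicate 2 stood above the others. The 3 genes shared their highest replicate in 12 of the 18 groups and their lowest in 10.

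Once the group mean was taken out of log2(CPM + 0.5), the chromosome 13 isoflavone synthase correlated over the 54 libraries with chalcone reductase (Pearson's r = 0.93), hydroxyisoflavanone dehydratase (r = 0.84) and the chromosome 7 copy (r = 0.68). Chalcone isomerase stood apart, with r between 0.13 and 0.44 against the other 4 genes. Its low counts, with a median of 14 per library and none in 5 libraries, limit what these values can show. Between group means the picture changed for the chromosome 7 copy, which had r = -0.07 with the chromosome 13 copy and -0.01 with hydroxyisoflavanone dehydratase, whereas the chromosome 13 copy kept r = 0.90 with chalcone reductase. Over all 54 libraries without removal of group means, chalcone reductase ranked 26 of 25038 candidate genes by its r with the chromosome 13 copy (0.91), and the chromosome 7 copy ranked 5967 (0.27). These correlations are descriptions, since the points share libraries, scaling and groups.

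Measures of the libraries were set beside the same deviations. Within groups, r with the log2 total of counts lay between -0.15 and 0.10 for the 5 genes, r with the share of missing values on chromosomes 14 to 20 between 0.14 (chromosome 7 isoflavone synthase) and 0.36 (hydroxyisoflavanone dehydratase), and r with the share of Dongnong47-like markers between -0.35 (chalcone isomerase) and 0.31 (chromosome 7 isoflavone synthase). With the clock gene LCL2, r lay between -0.38 (chalcone isomerase) and 0.06 (chromosome 13 isoflavone synthase). For chalcone isomerase, r with LCL2 and with these markers was larger in size than r with the chromosome 13 (0.31) or the chromosome 7 isoflavone synthase (0.13). Its r with hydroxyisoflavanone dehydratase (0.44) was larger in size than both, and its r with chalcone reductase (0.36) lay between them in size. The part of these measures in the replicate spread was not tested.

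**Figure D3:**
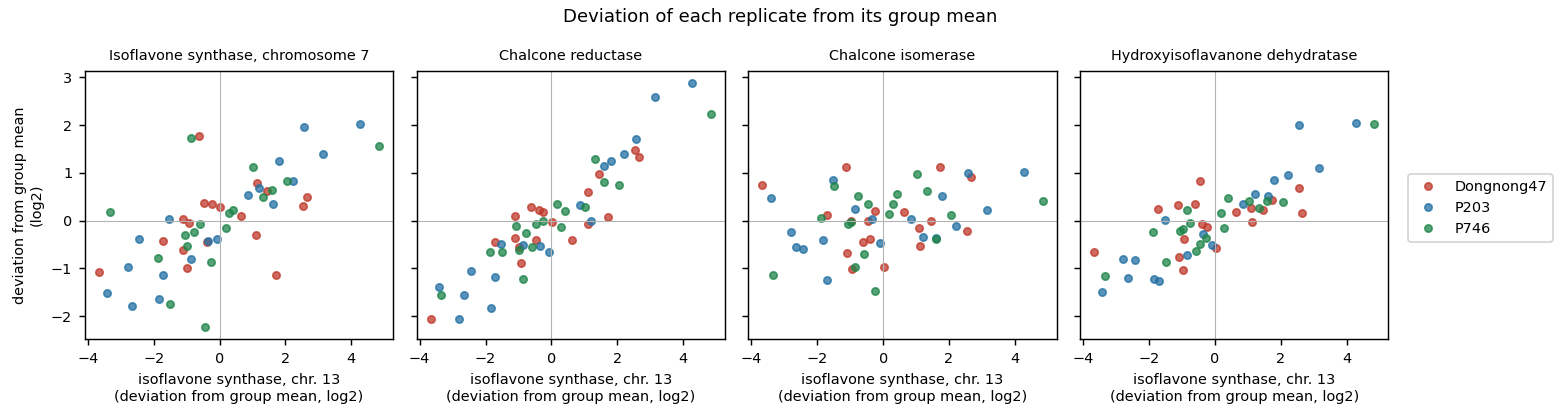
Deviation of each library from its group mean in log2(CPM + 0.5), for the chromosome 13 isoflavone synthase (x axis) and each of the other 4 genes (y axis), with 1 point for each of the 54 libraries, coloured by genotype. Deviations of chalcone reductase (r = 0.93) and hydroxyisoflavanone dehydratase (r = 0.84) follow a line, and those of chalcone isomerase, a gene with low counts, do not.

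The genes most like each enzyme over the 54 libraries were named by identifier alone. GLYMA09G04520 came first for the chromosome 13 isoflavone synthase (r = 0.97), followed by GLYMA09G29000 (0.93) and GLYMA05G29400 (0.93). For chalcone reductase they were GLYMA01G31750 (0.93), GLYMA05G28610 (0.92) and GLYMA01G26220 (0.92), and for hydroxyisoflavanone dehydratase GLYMA01G44600 (0.91), GLYMA03G24610 (0.90) and GLYMA03G00830 (0.90). The chromosome 7 isoflavone synthase was nearest to GLYMA08G29920 (0.78), GLYMA11G24620 (0.78) and GLYMA03G39970 (0.77), and chalcone isomerase to GLYMA04G33930 (0.81), GLYMA03G30720 (0.79) and GLYMA01G40690 (0.79). No gene of the 5 lists another of them among its nearest 3.

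Infestation was compared with mock treatment within each genotype and time point (edgeR). A call needed an adjusted p below 0.05 over all loci and a log2 difference of 1 or more in size. Of 43 member tests, 2 were called, both lower in infested leaves, against 2.82% of all locus tests in the 9 comparisons. With DESeq2, 6 of the 43 were called (5 lower and 1 higher), against 8.07% of all tests. Both edgeR calls were hydroxyisoflavanone dehydratase at 96 HAI, in Dongnong47 and in P746.

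In Dongnong47 at 96 HAI, hydroxyisoflavanone dehydratase had 39.0, 99.2 and 59.9 CPM in the mock libraries and 13.5, 12.7 and 5.63 CPM in the infested libraries. The groups did not overlap, and the gene fell by 2.68 on the log2 scale (SE 0.54, adjusted p = 0.0353), 1 of 5 members called where 9.26% of loci were. The adjusted p stayed under the threshold without mock replicate 1 (0.0306) and rose to 0.0669 to 0.103 without any other single library. Without infested replicate 1, the library with P203-like markers, it was 0.0844 with a log2 difference of -2.85, and with chromosomes 1 to 13 alone it was 0.0523 with a log2 difference of -2.67. Abundant genes of chromosomes 14 to 20 had no value in 38.9% to 53.5% of cases in these mock libraries and 0.165% to 4.31% in the infested ones. The part of this in the result was not tested.

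Chalcone reductase and the chromosome 13 isoflavone synthase lay lower in the same infested leaves without passing the edgeR threshold. DESeq2 called 20.9% of loci in this comparison. Chalcone reductase had 0.488, 11.0 and 5.73 CPM in mock and 0.174, 0.288 and 0 CPM in infested libraries, groups that did not overlap (log2 difference -5.14, SE 1.44, adjusted p = 0.0914 with edgeR and 0.000179 with DESeq2). The chromosome 13 isoflavone synthase had 3.41, 289 and 108 CPM in mock and 6.51, 0.882 and 0.490 CPM in infested libraries, which overlapped through replicate 1 of each group, the infested one being the library with P203-like markers (log2 difference -5.73, SE 1.89, adjusted p = 0.13 with edgeR and 8.4e-05 with DESeq2). The chromosome 7 copy and chalcone isomerase had log2 differences of -0.89 (SE 0.93) and -1.81 (SE 1.07), the latter with 3.62, 1.60 and 1.20 CPM in mock and 1.52, 0.176 and 0.0817 CPM in infested libraries. The median of the 5 genes with all libraries was -2.68, beside 0.11 over all loci tested. Without infested replicate 1, the mean of the chromosome 13 isoflavone synthase in infested leaves went from 2.63 to 0.686 CPM and that of chalcone isomerase from 0.593 to 0.129 CPM, and for both genes the groups no longer overlapped. The log2 difference was then -7.61 for the chromosome 13 isoflavone synthase (SE 2.28, adjusted p = 0.133 with edgeR), -3.91 for chalcone isomerase (SE 0.82, adjusted p = 0.0688), -5.16 for chalcone reductase (SE 1.93, adjusted p = 0.191) and -0.40 for the chromosome 7 copy (SE 0.93), so that none of the 5 genes passed.

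In P746 at 96 HAI, hydroxyisoflavanone dehydratase had 48.2, 75.7 and 51.2 CPM in mock and 12.4, 15.4 and 21.3 CPM in infested libraries. Again the groups were separate, and the gene was lower in infested leaves (log2 difference -1.81, SE 0.30, adjusted p = 0.0328), as 1 of 5 members where 4.88% of loci were called. This call held without mock replicate 1 (0.0451) and was lost without any other single library (0.0659 to 0.0983) and with chromosomes 1 to 13 alone (0.0598, log2 difference -1.80). Chalcone reductase had 1.71, 5.63 and 2.71 CPM in mock and 0.450, 0.298 and 0.665 CPM in infested libraries, without overlap (log2 difference -2.83, SE 0.60, adjusted p = 0.0646 with edgeR and 0.000589 with DESeq2, which called 11.3% of loci). The chromosome 13 isoflavone synthase had 30.1, 337 and 137 CPM in mock and 22.6, 15.7 and 55.7 CPM in infested libraries, with overlap and an adjusted p of 0.242. The chromosome 7 copy, with 6.77, 18.9 and 13.3 CPM in mock and 8.70, 13.6 and 35.8 CPM in infested libraries, was the only member with a positive log2 difference (0.59, SE 0.63, adjusted p = 0.667), and that of chalcone isomerase was -1.56 (SE 1.17, adjusted p = 0.516). Infested replicate 1 also stood apart in the clock gene LCL2, with 360 CPM against 4.76 and 8.28 CPM in replicates 2 and 3, and without it hydroxyisoflavanone dehydratase had a log2 difference of -1.64 (adjusted p = 0.0981). The libraries labelled P746 at this time carry many P203-like markers, and missing values on chromosomes 14 to 20 were more frequent in mock leaves, whose part in these results was not tested.

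In P203 at 96 HAI none of the 5 genes was called, where 4.98% of loci were (edgeR, none of the 5 at an unadjusted p under 0.05 and none called by DESeq2). Hydroxyisoflavanone dehydratase had 95.8, 72.5 and 17.03 CPM in mock and 14.2, 21.0 and 141 CPM in infested libraries, so that 1 library in each group went against the other members of its group. Its log2 difference was 0.01 with an SE of 1.07. The difference between the responses of P203 and Dongnong47 at 96 HAI was 2.63 on the log2 scale for this gene (SE 1.12, adjusted p = 0.261), 4.73 for chalcone reductase (SE 1.70, adjusted p = 0.217) and 5.21 for the chromosome 13 isoflavone synthase (SE 2.33, adjusted p = 0.279). Without Dongnong47 infested replicate 1 these differences were 2.83, 4.77 and 7.12, with adjusted p-values of 0.364, 0.348 and 0.335.

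No response of the 5 genes was shown to differ between genotypes at any time: 0 of 45 interaction tests passed with edgeR, 4 had an unadjusted p under 0.05, and 0.0217% of all locus tests passed. DESeq2 called 1 of 45, chalcone reductase in P203 against Dongnong47 at 96 HAI (adjusted p = 0.0282), beside 3.05% of all tests and 9.27% of loci in that comparison.

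**Figure D4:**
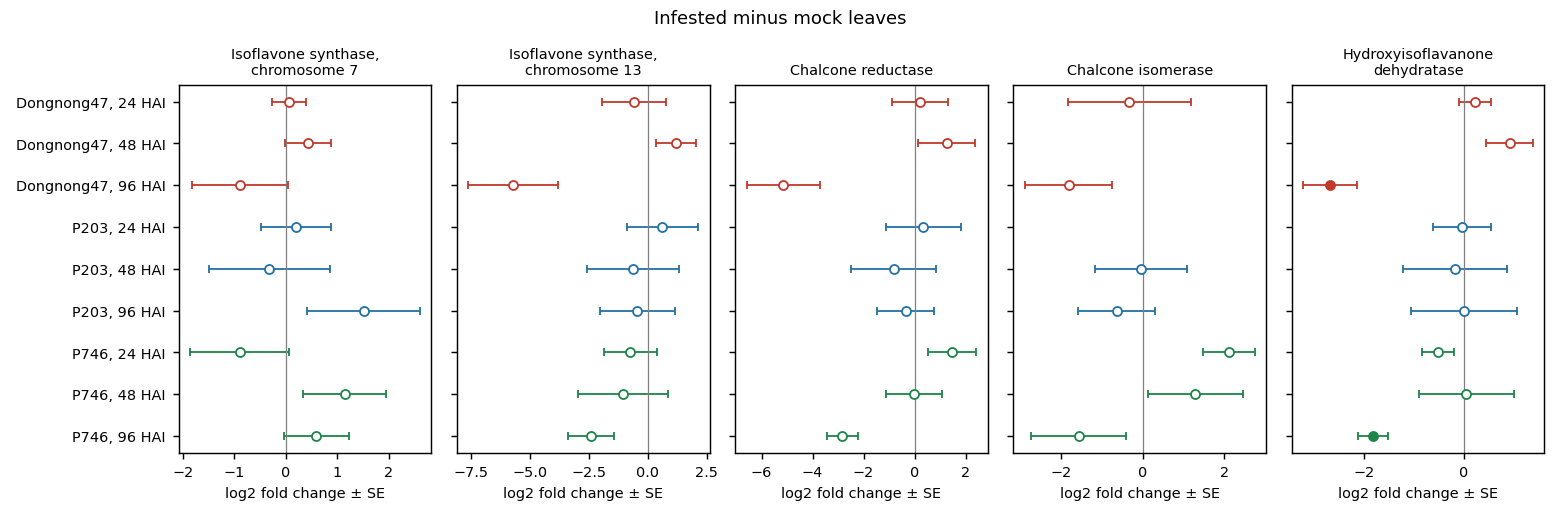
Infested minus mock log2 fold change with its standard error (edgeR) for each gene in the 9 comparisons of 3 mock and 3 infested libraries (chalcone isomerase was not tested in Dongnong47 at 48 HAI and in P203 at 24 HAI because of low counts). Both filled points, which passed the threshold, are hydroxyisoflavanone dehydratase at 96 HAI, in Dongnong47 (-2.68) and P746 (-1.81).

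At 24 and 48 HAI no member passed the test in any genotype with edgeR. Of all loci tested, 1% and 5.36% passed at these times in Dongnong47, 0% and 0.0655% in P203, and 0% at both times in P746. In Dongnong47 at 48 HAI hydroxyisoflavanone dehydratase had 19.6, 12.7 and 5.01 CPM in mock and 27.2, 22.8 and 21.8 CPM in infested libraries (log2 difference 0.93, SE 0.47, adjusted p = 0.268), with every infested library above every mock library. At 96 HAI every infested library lay below every mock library. Between these times the group mean went from 12.4 to 66.0 CPM in mock leaves and from 24.0 to 10.6 CPM in infested leaves. The change was thus larger in mock leaves. A test of the difference between both responses, added after the pattern was seen, gave -3.56 for the response at 96 HAI minus that at 48 HAI (SE 0.70, adjusted p = 0.00691 with edgeR, n = 18 libraries), where 12.8% of loci passed. Without Dongnong47, 96 HAI, infested replicate 1, it was -3.78 (SE 0.77, adjusted p = 0.0116), where 10.9% of loci passed, and the chromosome 13 isoflavone synthase, at -6.86 (adjusted p = 0.0564) with all libraries, passed as well (-8.79, SE 2.51, adjusted p = 0.0416). In P746 at 24 HAI chalcone isomerase had 0.609, 0.734 and 0.581 CPM in mock and 3.08, 0.945 and 3.84 CPM in infested libraries (log2 difference 2.12, SE 0.63, adjusted p = 0.381 with edgeR and 0.022 with DESeq2, which called 6.2% of loci). Its higher infested values are replicates 1 and 3, the libraries that go against their label, and without them, with replicate 2 as the only infested library and its spread assumed to be that of the mock group, the log2 difference was 0.54 (SE 0.77, adjusted p = 0.868 with edgeR). Hydroxyisoflavanone dehydratase in the same leaves had 33.2, 49.1 and 32.2 CPM in mock and 17.5, 29.0 and 30.0 CPM in infested libraries, without overlap and without passing the test (adjusted p = 0.605). Without replicates 1 and 3 its log2 difference was -0.41 (SE 0.40, adjusted p = 0.825), against -0.51 with them. In P746 at 48 HAI the log2 differences of the 5 genes ran from -1.05 (chromosome 13 isoflavone synthase) to 1.3 (chalcone isomerase), with adjusted p-values of 0.765 to 0.996. Without infested replicate 3 they ran from -0.47 to 1.84 for the same genes, with adjusted p-values of 0.798 to 0.97.

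Constitutive differences were tested between mock leaves of the genotypes at each time. Of 45 member tests, 2 were called with edgeR, both higher, against 1.26% of all tests, and DESeq2 called 8 of 45, against 5.74%. Both edgeR calls were the chromosome 13 isoflavone synthase at 48 HAI, higher in P203 and in P746 than in Dongnong47. The comparisons share their Dongnong47 libraries.

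At 48 HAI the chromosome 13 isoflavone synthase had 0.947, 4.98 and 0.511 CPM in mock leaves of Dongnong47, 776, 404 and 35.02 CPM in P203, and 915, 782 and 458 CPM in P746. The lowest resistant library lay above the highest Dongnong47 library. The log2 difference was 7.59 for P203 (SE 1.48, adjusted p = 0.041) and 8.41 for P746 (SE 1.53, adjusted p = 0.0312), each 1 of 5 members called, where 3.43% and 4.49% of loci were. Over the 9 libraries left out in turn the call held for P203 without P203 replicate 3 or P746 replicate 3 and for P746 without P203 replicates 1 or 3 or P746 replicate 3, and otherwise the adjusted p rose to at most 0.135 and 0.114 while the log2 difference stayed at 6.68 to 9.96. The mock libraries labelled P746 at this time were P203-like at 90.7% to 97.3% of the 75 markers between P203 and P746, so that for this comparison the genotype label and the plant material cannot be told apart. The clock gene LCL2 also stood apart in these mock leaves. It had 355.9 to 776 CPM in Dongnong47, 97.3 to 223.5 CPM in P203 and 174.5 to 311.4 CPM in P746. Its log2 differences from Dongnong47 were -1.88 and -1.27, not called with edgeR, and the part of the clock was not tested.

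In the same leaves chalcone reductase and hydroxyisoflavanone dehydratase lay above Dongnong47 in every library, without passing the edgeR threshold. Against Dongnong47, DESeq2 called 16.9% of loci in P203 and 17.8% in P746 at this time. Chalcone reductase had 0.0592, 0.946 and 0 CPM in Dongnong47, 17.9, 9.28 and 2.15 CPM in P203 and 11.2, 12.5 and 6.46 CPM in P746 (adjusted p = 0.0867 and 0.0775 with edgeR, 9.59e-05 and 9.45e-05 with DESeq2). Hydroxyisoflavanone dehydratase had 19.6, 12.7 and 5.01 CPM in Dongnong47, 99.6, 71.1 and 23.9 CPM in P203 and 83.0, 66.3 and 38.1 CPM in P746 (log2 differences 2.42 and 2.36, adjusted p = 0.0878 and 0.084 with edgeR, 0.00114 and 0.00162 with DESeq2). With chromosomes 1 to 13 alone both genes passed with edgeR, at 0.037 and 0.0328 for chalcone reductase and 0.0475 and 0.0471 for hydroxyisoflavanone dehydratase. Replicate numbers of P746 and Dongnong47 deviated together at 48 HAI, and with the replicate number as a block the adjusted p against P746 was 0.0498 for chalcone reductase and 0.0234 for hydroxyisoflavanone dehydratase, past the threshold. Chalcone isomerase, at 0 in Dongnong47, had means of 0.569 ± 0.387 CPM in P203 and 0.455 ± 0.384 CPM in P746, which is at least 8.44-fold and 6.75-fold higher than the 3 counts over the group that a count of 0 allows (adjusted p = 0.106 for each with edgeR, 0.004 and 0.00701 with DESeq2). The lowest libraries of P203 (0.193 CPM) and P746 (0.0566 CPM) did not exceed the limit of 0.256 CPM of a single Dongnong47 library.

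The chromosome 7 isoflavone synthase did not share this difference. It had 56.0, 66.8 and 21.4 CPM in Dongnong47, 86.7, 52.8 and 10.1 CPM in P203 and 43.6, 33.4 and 35.1 CPM in P746, and the groups overlapped (log2 differences 0.09, SE 0.72, and -0.34, SE 0.72). At 96 HAI the chromosome 13 copy in mock leaves differed between genotypes by less than its spread, with 3.41, 289 and 108 CPM in Dongnong47 against 10.4 to 541 CPM in P203 and 30.1 to 337 CPM in P746. At 24 HAI its log2 differences from Dongnong47 were 3.70 for P203 and 3.0 for P746, and the library ranges overlapped.

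Mock leaves were then compared over time within each genotype. Of 30 member tests, 5 were called with edgeR (4 higher and 1 lower), against 8.05% of all tests, and 12 with DESeq2, against 17.3%. Sampling times cannot be told apart from whatever else differed between harvests. In Dongnong47 between 48 and 96 HAI 2 of 5 members rose, where 15.7% of loci were called.

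Hydroxyisoflavanone dehydratase went from 19.6, 12.7 and 5.01 CPM to 39.0, 99.2 and 59.9 CPM in mock Dongnong47 leaves between 48 and 96 HAI. It rose by 2.45 on the log2 scale (SE 0.55, adjusted p = 0.0247), and every later library was above every earlier one. Chalcone isomerase went from 0 in all 3 libraries to 3.62, 1.60 and 1.20 CPM, at least 31.7-fold higher than the limit of 3 counts over the earlier group (adjusted p = 0.0345). The replicate numbers of these groups deviated together, and with the replicate number as a block neither gene passed (0.0685 and 0.107), whereas chalcone reductase did (0.0453, without the block 0.138). Without a block, the call of hydroxyisoflavanone dehydratase was lost without replicates 2 or 3 of 48 HAI or replicate 2 of 96 HAI (0.0534 to 0.0788), and that of chalcone isomerase was kept only without replicates 1 or 2 of 24 HAI (0.0157 and 0.0304), against at most 0.0781 without another library. The chromosome 13 isoflavone synthase had a log2 difference of 6.01 over this interval (SE 2.03, adjusted p = 0.08).

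In mock P746 leaves 2 of 5 members were called between 24 and 48 HAI, in opposite directions. The chromosome 7 isoflavone synthase went from 103, 262 and 121 CPM to 43.6, 33.4 and 35.1 CPM and fell by 2.11 on the log2 scale (SE 0.49, adjusted p = 0.033). The chromosome 13 copy went from 37.7, 313 and 35.6 CPM to 915, 782 and 458 CPM, also without overlap (log2 difference 2.48, SE 1.13, adjusted p = 0.177 with edgeR and 0.0456 with DESeq2, which called 22.5% of loci). Chalcone reductase rose from 0.609, 2.38 and 1.07 CPM to 11.2, 12.5 and 6.46 CPM, by 2.90 on the log2 scale (SE 0.66, adjusted p = 0.0307), so that 1 member rose and 1 fell, where 11% of loci were called.

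Between 48 and 96 HAI 1 of 5 members was called in mock P746 leaves, where 7.45% of loci were. Chalcone isomerase rose from 0.824, 0.485 and 0.0566 CPM to 3.81, 2.69 and 4.78 CPM (log2 difference 2.98, SE 0.72, adjusted p = 0.0485). Both isoflavone synthase copies had negative log2 differences over this interval that did not pass with edgeR, -1.56 for the chromosome 7 copy (SE 0.48, adjusted p = 0.0887) and -2.14 for the chromosome 13 copy (SE 1.11, adjusted p = 0.247). With libraries of this genotype left out in turn, the chromosome 7 isoflavone synthase stayed called without 24 HAI replicate 2 or 96 HAI replicates 1 or 2 and was lost without any other (adjusted p up to 0.0988). Chalcone reductase stayed called without 24 HAI replicate 2, 48 HAI replicate 3 or 96 HAI replicates 1 or 2 (otherwise up to 0.111), and chalcone isomerase without 24 HAI replicate 2 or 48 HAI replicate 3 (otherwise up to 0.148). The mock libraries of P746 at 24 HAI, which define the P746-like markers, and those at 48 and 96 HAI, which carry mostly P203-like ones, differ in these markers, so that time and plant material cannot be told apart in this genotype. In P203 none of the 5 genes passed in either interval with edgeR, where 5.57% (24 to 48 HAI) and 3.38% (48 to 96 HAI) of loci did. Chalcone isomerase came nearest, with 0.965, 0.549 and 0.193 CPM at 48 HAI and 1.91, 1.55 and 3.10 CPM at 96 HAI (log2 difference 1.90, SE 0.70, unadjusted p = 0.027 and adjusted p = 0.177 with edgeR, adjusted p = 0.0475 with DESeq2, which called 12.9% of loci).

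**Figure D5:**
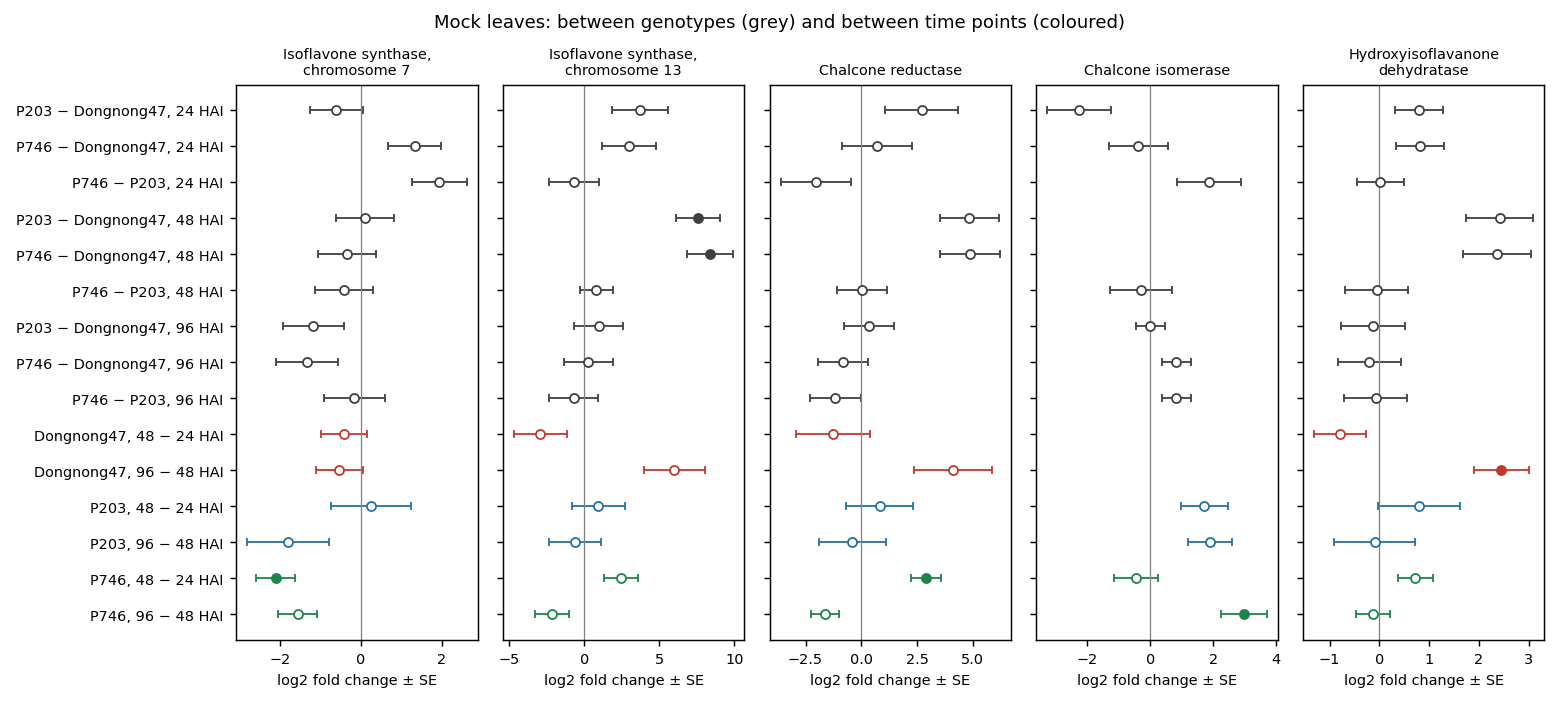
Log2 fold change with its standard error (edgeR) between mock leaves, for pairs of genotypes at each time (grey, fits of 9 libraries) and for successive times within a genotype (coloured, fits of 9 libraries), with filled points past the threshold and no chalcone isomerase where mock Dongnong47 leaves at 48 HAI, with no count, enter. The chromosome 13 isoflavone synthase lies at 7.59 and 8.41 for the resistant genotypes against Dongnong47 at 48 HAI.

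Genes upstream of the route were taken from the study's lists: 5 PAL genes, the entry enzymes of phenylpropanoid metabolism, and 3 MYB transcription factors. GmMYB29A2 (GLYMA10G32410) and GmMYB29B2 (GLYMA20G35180) belong to a group known in soybean for activating isoflavone and glyceollin genes, and MYB12a (GLYMA03G38040) is named after the Arabidopsis activator of flavonol genes. The study chose these lists on the same samples, so that they are no independent evidence. Within groups, the chromosome 13 isoflavone synthase had r = 0.89 with PAL1 GLYMA03G33880, 0.81 with PAL2 GLYMA13G20800, 0.82 with GmMYB29A2, 0.80 with GmMYB29B2, 0.63 with PAL1 GLYMA10G06600 and with PAL2 GLYMA02G47940, 0.59 with MYB12a and -0.26 with PAL1 GLYMA19G36620, over 54 libraries that share scaling and groups. PAL1 GLYMA19G36620 lies on chromosome 19, where values are missing. It is among the 5 PAL genes counted below and passed no test with edgeR or DESeq2.

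Of 45 PAL tests of infestation, 2 were called with edgeR and 4 with DESeq2, all lower, and of 17 MYB tests none with edgeR (2 at an unadjusted p under 0.05, 3 with DESeq2), beside 2.82% of all locus tests with edgeR and 8.07% with DESeq2. In the comparisons that hold the PAL calls, 9.26% and 4.88% of loci were called. The calls were PAL2 GLYMA13G20800 at 96 HAI. In Dongnong47 it had 137, 305 and 214 CPM in mock and 22.4, 52.1 and 42.5 CPM in infested libraries and fell by 2.53 on the log2 scale (SE 0.49, adjusted p = 0.0301). In P746 it had 133, 240 and 210 CPM and 62.4, 32.6 and 50.2 CPM and fell by 1.98 (SE 0.35, adjusted p = 0.0371). Each call held without mock replicate 1 and was lost without any other of its 6 libraries (adjusted p up to 0.0968 and 0.142), in Dongnong47 also without the infested library with P203-like markers (0.0741). These are the comparisons in which hydroxyisoflavanone dehydratase was called.

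Of 21 MYB tests between mock leaves of the genotypes, 4 were called, all higher at 48 HAI, and of 45 PAL tests none (edgeR, 7 at an unadjusted p under 0.05, 6 with DESeq2), beside 1.26% of all tests in this family and 3.43% (P203) and 4.49% (P746) of loci in the comparisons that hold the MYB calls. GmMYB29A2 had 0.118, 0.0631 and 0.256 CPM in Dongnong47, 2.50, 9.33 and 3.32 CPM in P203 and 10.8, 1.93 and 5.95 CPM in P746 (log2 differences 5.13 and 5.44, adjusted p = 0.0361 and 0.0277). GmMYB29B2 had 0.0592, 0 and 0 CPM against 5.87, 10.9 and 3.47 CPM and 7.44, 2.01 and 10.9 CPM (adjusted p = 0.0197 and 0.0183). All 4 calls were lost without any single Dongnong47 library of 48 HAI, the P746 calls also without P746 replicate 1 and the P203 calls without P203 replicates 1 or 2, with an adjusted p of at most 0.115, and that of GmMYB29A2 in P203 also without P746 replicate 1 (0.0565). Both genes are low in counts and closely related, and GmMYB29B2 lies on chromosome 20, where values are missing in part. They differed in the comparisons in which the chromosome 13 isoflavone synthase was called.

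Over time in mock leaves, PAL2 GLYMA13G20800 (log2 difference 1.26 on the edgeR scale, SE 0.32, adjusted p = 0.0366) and GmMYB29B2 (adjusted p = 0.0259) rose in Dongnong47 between 48 and 96 HAI, and PAL1 GLYMA03G33880 fell by 3.18 on the log2 scale in P746 over the same interval (SE 0.63, adjusted p = 0.0285). Together these were 2 of 30 PAL tests and 1 of 14 MYB tests, beside 8.05% of all tests (15.7% in Dongnong47 and 7.45% in P746 between 48 and 96 HAI). With the replicate number as a block, which these Dongnong47 libraries allow, the adjusted p was 0.0558 for PAL2 GLYMA13G20800 and 0.0488 for GmMYB29B2. PAL2 stayed called without replicates 1 or 2 of 24 HAI or replicate 1 of 96 HAI (otherwise up to 0.113), GmMYB29B2 was lost without any library of 48 HAI or replicate 2 of 96 HAI (up to 0.089), and PAL1 GLYMA03G33880 was lost without any library of 48 or 96 HAI (up to 0.116). The clock gene LCL2 (GLYMA03G42260), a homologue of the Arabidopsis morning genes LHY and CCA1, was called lower in 4 of 6 tests, among them Dongnong47 between 48 and 96 HAI (group means of 559.9 and 29.25 CPM, fell by 4.24 on the log2 scale, SE 0.47, adjusted p = 0.000804). Over the 18 group means the chromosome 7 isoflavone synthase had r = 0.73 with LCL2 and the chromosome 13 copy r = -0.06, whereas within groups they had -0.18 and 0.06. Whether harvests were made at the same hour of the day is not given in the sources used here, and the part of the clock in these levels was not tested.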

How the data were processed

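RNA of caged leaf areas was sequenced in 54 libraries, 3 for each genotype, treatment and time. By the methods of the study, the authors sequenced paired ends on an Illumina HiSeq, trimmed the reads, mapped them with HISAT2 to the soybean genome and counted them with StringTie, whereas the submitters' processing notes name CASAVA 1.8 and Bowtie. The deposited values are estimated counts per locus, not normalized, and between 18.0% and 23.3% of them per library were not whole. Here they were joined by identifier into 53971 loci, a locus without a value was taken as 0, blank lines of 7 libraries were left out and counts were rounded for testing.

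CPM used TMM factors over all 54 libraries. Comparisons were fitted with edgeR 4.0.16 in R 4.3.3 (filterByExpr with a minimum count of 10, quasi-likelihood F test, Benjamini-Hochberg over all loci tested): 6 libraries for infested against mock, 9 mock libraries for genotypes or times, 18 for interactions. A call needed an adjusted p below 0.05 and a log2 difference of 1 or more in size, and every adjusted p is from edgeR unless DESeq2 1.42.0 is named. Standard errors are the size of the log2 difference divided by the root of F. Overlap between groups was checked for the named genes only. How many of all loci lie without overlap in a comparison was not counted, so that a lack of overlap is a description. As a check of the code, the fits were run on simulated counts with known fold changes and a common spread for all genes. These do not show how the fits behave for genes as variable between replicates as the 5 enzymes. Named genes were the 5 enzymes in every comparison, the PAL, MYB and LCL2 genes of the study's tables, and the 3 genes nearest to each enzyme by Pearson's r of log2(CPM + 0.5). Members and lists were chosen with earlier results of these data known. The study states independent samples, but no label says that replicates were separate plants, so that p-values measure the spread between these samples.

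The alternatives tried were a fit of chromosomes 1 to 13 alone, DESeq2, the replicate number as a block, adjusted p as the only threshold, RLE factors, all loci without a filter, 1 fit over 54 libraries, interactions over 12 libraries, other scalings, and the omission of each library in turn. Fits without 4 libraries whose markers go against their label, and the treatment by time test, were chosen after seeing the data. Same-numbered libraries deviated together (every correlation over 0.1, over genes on chromosomes 1 to 13 that reached 5 CPM in 3 libraries) in 5 of 24 comparisons, with no label that gives a shared plant or day, and the blocked value is given beside a result where that pairing changed a call. The identifiers were not matched to the RefSeq table, and no sequence is printed.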

Additional observations from a re-analysis of the deposited data

Results flagged for a closer look

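For hydroxyisoflavanone dehydratase GLYMA01G45020 in Dongnong47, every infested library lay above every mock library at 48 HAI (log2 difference 0.93, adjusted p = 0.268 with edgeR, not past the threshold) and below every mock library at 96 HAI. Between these times the group mean rose from 12.4 to 66.0 CPM in mock leaves and fell from 24.0 to 10.6 CPM in infested leaves. The larger change was thus in mock leaves. The response at 96 HAI minus that at 48 HAI was -3.56 on the log2 scale (SE 0.70, adjusted p = 0.00691 with edgeR, 1.24e-06 with DESeq2). Of all loci, 12.8% passed this test with edgeR and 20.7% with DESeq2. The response at 96 HAI minus that at 24 HAI was -2.87 (SE 0.69, adjusted p = 0.0176 with edgeR), where 11.7% of loci passed. The test was chosen after the pattern was seen, and without the library with P203-like markers in the infested group at 96 HAI the values were -3.78 and -3.08 (adjusted p = 0.0116 and 0.0231). Of all loci, 10.9% and 10.3% then passed.

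Chalcone isomerase GLYMA10G43850 in P746 likewise had every infested library above the mock libraries at 24 HAI and below them at 96 HAI, and the difference of these responses was -3.61 (SE 1.61, adjusted p = 0.288 with edgeR), which did not pass. At 24 HAI 2 of its 3 infested libraries go against their label, and counts of this gene were low. Without the P746 libraries among the 4 left out for their markers, the difference was -2.09, with 1 infested library left at 24 HAI. That fit kept all libraries labelled P746 at 96 HAI, which were P203-like at 76% to 98.7% of the markers between P203 and P746. Time and plant material therefore cannot be told apart in this difference.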

How the results depend on the processing

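Of 45 member pairs with infestation, 2 were called, but 6 with DESeq2, 1 without a filter on low counts, 0 with chromosomes 1 to 13 alone, 1 without the 4 libraries that go against their label, and 1 to 3 with each library left out. Of the genotype pairs in mock leaves 2 were called, but 8 with DESeq2, 1 without the filter, 6 with chromosomes 1 to 13 alone, and 0 to 6 with each library left out. Interactions went from 0 calls to 1 with DESeq2 and stayed at 0 with each library left out. Of the time pairs 5 were called, 12 with DESeq2 and 2 to 7 with each library left out. With the replicate number as a block, calls went to 0 for infestation, 6 for genotype and 1 for time and stayed at 0 for interactions. Other settings kept these counts within 1.5-fold. Over all locus tests edgeR called 2.82% for infestation, 1.26% for genotype, 0.0217% for interactions and 8.05% for time. The shares with DESeq2 were 8.07%, 5.74%, 3.05% and 17.3%, so that calls rose over all loci as well. For the remaining settings no share over all loci is given, and a change in these counts cannot be read as particular to the 5 genes. The 41 named pairs, of members and of PAL, MYB and LCL2 genes, were picked for a low adjusted p in the main edgeR fits. A change of sign was thus unlikely from the start, and none of their log2 differences changed sign. Without the 4 libraries left out for their markers, 3 uncalled log2 differences between infested and mock P746 leaves did. These were the chromosome 7 isoflavone synthase at 24 HAI (-0.90 to 0.063) and chalcone reductase at 24 HAI (1.47 to -0.74) and 48 HAI (-0.04 to 0.49). The cause was not tested. For scaling by total counts, the shift of the median gene was added to each called difference without a new fit. The largest shift among the 9 member calls was 0.847, and the smallest called difference in size was -1.815. No direction could therefore change. Over 18 group means, r with the nearest gene was 0.84 for the chromosome 7 isoflavone synthase and 0.88 for chalcone isomerase, against 0.78 and 0.81 over libraries. Chalcone isomerase had a median of 14 estimated counts per library, which limits what it can show.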
